A study of Homo sapiens with 8 samples.

Results

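Ectoderm and endoderm cultures derived from the established human embryonic stem cell line H1 were set directly against each other, without undifferentiated cells as a baseline. The comparison used 4 of the 8 long-read libraries of polyadenylated RNA, 2 repeats of each culture, picked by the layer their titles name. The other 4 libraries were 2 of undifferentiated cells (hPSC) and 2 of mesoderm. They entered the filter that set which genes were tested, the scaling of library sizes and the shared estimate of the spread between repeats. With the 4 ectoderm and endoderm libraries alone 10272 genes were tested, against 10563. All cultures started from H1 cells kept on Matrigel in mTeSR1 medium, and differentiated cells were collected after 5 days. Endoderm cells were grown in RPMI with 0.5% FBS, WNT3A and 100 ng/ml Activin A, a ligand that signals through the same receptors as NODAL. Ectoderm cells were grown in DMEM/F-12 with 15% KOSR, a serum replacement, and 2 µM each of A83-01, which inhibits the type I receptors of Activin, NODAL and TGF-beta, PNU-74654, which blocks the binding of beta-catenin to TCF factors, and Dorsomorphin, which inhibits BMP receptors. Basal medium, serum and factors all differed between the 2 cultures, so their parts in a difference cannot be told apart. The labels do not say that repeats came from separate cultures, so p-values measure only the spread between these samples.

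In the early embryo, strong NODAL signalling together with WNT turns epiblast cells into mesendoderm and then definitive endoderm. SMAD proteins and their partner FOXH1 switch on EOMES, GSC, MIXL1, GATA factors and SOX17, and also the secreted feedback inhibitors LEFTY1, LEFTY2 and CER1. Where NODAL and BMP signals are blocked, epiblast turns into neuroectoderm, and its front end switches on forebrain and eye-field factors such as FEZF1, HESX1, RAX, LHX5 and PAX6.

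The labels were first checked against 4 markers. PAX6 and SOX2 mark neuroectoderm, and SOX2 also marks pluripotent cells. CER1 and SOX17 mark definitive endoderm. PAX6 had 170 and 79 reads in ectoderm and 6 and 5 in endoderm, and SOX2 had 180 and 129 reads in ectoderm and 0 and 0 in endoderm. CER1 had 0 and 0 reads in ectoderm and 974 and 1181 in endoderm, and SOX17 had 0 and 0 reads in ectoderm and 150 and 16 in endoderm. For each of the 4 genes the groups did not overlap, in the direction of the labels. The lack of overlap alone is common, as it held for 84.6% of all genes tested. SOX17 was uneven between the endoderm repeats, and FOXA2, another defining endoderm factor (chosen after its values were seen), had 0 reads in both ectoderm libraries and only 3 and 4 in endoderm, too few to be tested. In bulk RNA, fewer cells that express a gene and less RNA of it per cell cannot be told apart.

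The total count was 1180888 and 967206 reads in ectoderm and 585558 and 586183 in endoderm. Levels below are normalised CPM, that is CPM of the library size after TMM scaling, unless reads are named. A count of 0 allows up to 3 reads, which is 2.14 and 2.61 normalised CPM in ectoderm and 7.01 and 7.49 in endoderm, so lower bounds on a fold are weaker for genes high in ectoderm. A fitted fold rests on few reads where both libraries of the lower group lie at or below these levels. Examples below are L1CAM, KDR, SERPINB9, LIX1, LIN28B, SYT1, DLL1, SMAD4 and ETV1. Of 10563 genes tested with edgeR's quasi-likelihood test, 62.9% had an adjusted p under 0.05: 3488 (33.0%) were higher and 3154 (29.9%) lower in ectoderm, and 240 and 155 of these differed at least 32-fold by the fitted value. With library totals in place of TMM scaling, log2 fold changes moved up by a median of 0.80, and the split of the 7003 calls (66.3%) became 5113 higher (48.4%) and 1890 lower (17.9%), so a gene or family of small change has no fixed direction. The groups of 8939 genes tested (84.6%) did not overlap. By transcript, 7782 of 12440 tested (62.6%) were called, 4256 higher (34.2%) and 3526 lower (28.3%), and by gene DESeq2 called 5082 (48.1%), 2464 higher (23.3%) and 2618 lower (24.8%).

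The direction of a call also went with transcript length. Ectoderm reads came from transcripts with a mean length of 4406 nt (repeat 1) and 4650 nt (repeat 2), and endoderm reads from transcripts of 3073 nt and 2975 nt. Among the 2113 shortest genes tested, 8.85% were higher and 58.5% lower in ectoderm. Among the 2113 longest, 56.4% were higher and 9.23% lower. The part of read length in the results was not tested further than by a fit with the trend on length removed, which called 5855 genes (55.4%), 2753 higher (26.1%) and 3102 lower (29.4%). Its counts are given below beside gene groups whose members are mostly short or long.

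**Figure D1:**
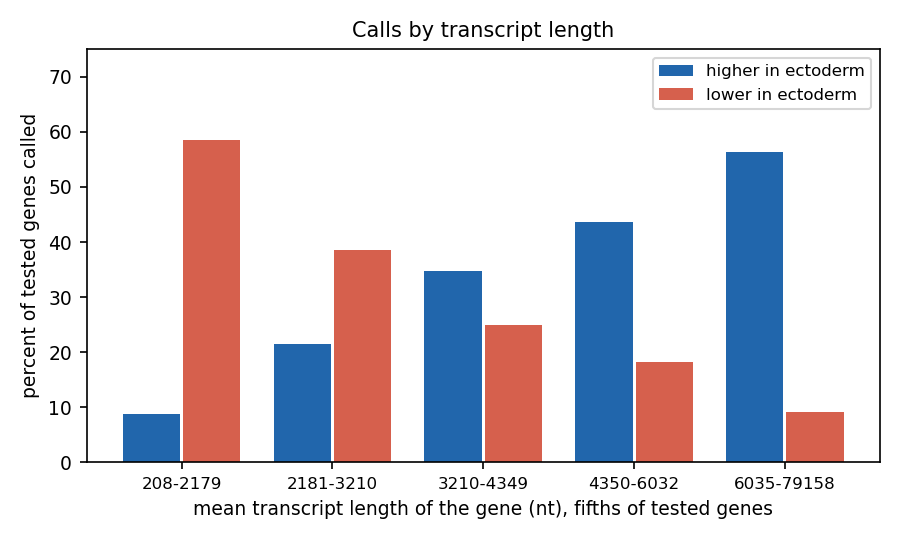
Bars show the percent of genes called higher (blue) or lower (red) in ectoderm, on the y axis, in 5 equal bins of the tested genes by mean transcript length in nt, on the x axis. The blue bars rise from 8.85% to 56.4% and the red bars fall from 58.5% to 9.23%.

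Forebrain and eye-field factors set the ectoderm cultures apart. FEZF1, a zinc finger repressor of the early forebrain, showed 890 and 680 reads in ectoderm and none in endoderm, a level at least 84.5-fold higher, and RAX, HESX1 and LHX5 were likewise read in ectoderm libraries only. Of 21 tested neuroectoderm transcription factors (36 were listed, and 30 are in the assembly), 17 were higher and 2 lower in ectoderm, with a median log2 fold change of 4.45, against 33.0% higher, 29.9% lower and a median of 0.18 over all genes tested. With members that lacked reads in ectoderm or in endoderm set at their bound (7 of them called), the median was 3.45. With the length trend removed the list stood at 15 higher and 2 lower, with a median of 3.29.

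HESX1, a repressor of posterior fate in the anterior neural plate and pituitary, had 257 and 158 reads in ectoderm and 0 in endoderm, at least 22.1-fold higher (edgeR adjusted p = 9.06e-07). LHX5, a LIM homeobox factor of the forebrain, had 235 and 156 reads and none in endoderm (at least 20.9-fold, adjusted p = 2.21e-06, but 0.133 by DESeq2). RAX, which the eye field needs, had 208 and 129 reads and none in endoderm (at least 18.0-fold, adjusted p = 3.59e-06). In these genes both ectoderm libraries were high and both endoderm libraries empty.

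PAX6 was not empty in endoderm: its level was 121 and 68.7 in ectoderm and 14.02 and 12.5 in endoderm, a log2 fold change of 2.83 ± 0.47 (SE; adjusted p = 0.000164). SOX2 was at least 16.6-fold higher in ectoderm (adjusted p = 0.000255). OTX2, a head organiser and anterior epiblast factor that is also used outside the neural plate, was lower in ectoderm and stood at 129 and 113 in ectoderm and 563 and 594 in endoderm (-2.25 ± 0.36, adjusted p = 7.85e-05). OTX1 did not pass the test, with 29.2 and 15.6 in ectoderm and 9.35 and 9.99 in endoderm (adjusted p = 0.101).

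Neural progenitor genes were mostly higher in ectoderm, with 11 of 18 tested members higher, 3 lower and a median log2 fold change of 1.56. DLK1, an imprinted membrane relative of the NOTCH ligands, had 468 and 312 reads in ectoderm and 0 in endoderm (at least 41.7-fold higher, adjusted p = 2.84e-07). LIX1 had 360 and 285 reads in ectoderm and 2 and 2 in endoderm (5.65 ± 0.47), and LRP2 (megalin), an endocytic receptor on the apical side of the neural tube, had 204 and 197 reads in ectoderm and 0 and 1 in endoderm (130.2-fold higher, pooled, 95% interval 23.2 to 5154). Where the lower group held 1 to 3 reads in all, as in LRP2, the fold is a ratio of reads pooled over repeats, with an interval for counting error only. In such genes, where 1 library of the lower group held no read, leaving that library out divided the ratio of means by 2 (126.9 to 63.4 in LRP2 without endoderm repeat 1). LIN28B, which blocks let-7 maturation, stood at 167 and 204 in ectoderm and 7.01 and 7.49 in endoderm (4.64 ± 0.42). Each of these members had both ectoderm libraries above both endoderm libraries. In either direction, the groups of 84.6% of all genes tested did not overlap. The 3 lower members were the intermediate filament VIM, at 15.7 and 8.69 against 759 and 684, the N-cadherin gene CDH2, at 88.5 and 96.5 against 563 and 494, and the retinoic acid binding protein CRABP1, at 17.1 and 28.7 against 56.1 and 54.9. The call of CRABP1 was lost by library totals (-0.48, adjusted p = 0.261), with the length trend removed (-0.10, adjusted p = 0.834) and without 1 library in 3 of 4 cases (0.0511 to 0.125). The widely used progenitor genes HES1 and MSI1 did not pass: HES1 stood at 62.8 and 42.6 against 28.0 and 44.9, and MSI1 at 66.3 and 58.2 against 23.4 and 39.9.

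Genes of neurons gave no common direction: of 5 tested members 2 were higher and 2 lower. MAP2, a microtubule protein of dendrites, had 213 and 172 reads in ectoderm and 0 and 1 in endoderm (125-fold higher, pooled, 95% interval 22.3 to 4949), and SYT1, the calcium sensor of synaptic vesicles, stood at 115 and 103 against 4.67 and 7.49 (4.13 ± 0.45). TUBB3, a beta-tubulin widely used as a neuron marker, went the other way, with 19.97 and 20.9 in ectoderm and 2213 and 2469 in endoderm (-6.83 ± 0.41, adjusted p = 2.57e-08), and STMN2 had 4 and 0 reads in ectoderm and 18 and 15 in endoderm. GAP43 did not pass the test, with 7 and 3 reads in ectoderm and 1 and 5 in endoderm.

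Markers of the other ectodermal lineages were few. Of 6 tested neural crest and placode genes 2 were higher and 2 lower (2 and 1 by library totals), and 3 of the 16 listed had 0 reads in all 4 libraries. The called shares were near those over all genes tested (33.0% higher and 29.9% lower). NGFR, a neurotrophin receptor of crest and progenitor cells, had 173 and 144 reads in ectoderm and 0 and 2 in endoderm (51.5-fold higher, pooled, 95% interval 14.1 to 427), and the placode factor SIX4 had 38 and 30 reads in ectoderm and 0 and 1 in endoderm. ETS1 had 0 and 1 reads in ectoderm and 12 and 16 in endoderm (86.3-fold lower in ectoderm, pooled, 95% interval 14.3 to 3527). The call of TFAP2A rests on 1 and 0 reads in ectoderm against 4 and 0 in endoderm. Without endoderm repeat 1 its log2 fold change was 1.73, not -3.12, with an adjusted p of 0.657, and it missed the threshold under 9 other alternatives. Of 8 tested surface ectoderm genes 3 were higher and 4 lower. The transcription factors TFAP2C, GRHL2 and GRHL3 were higher in ectoderm, TFAP2C with 72 and 48 reads against 0 (at least 6.42-fold). GRHL2 stood at 32.8 and 40.0 against 2.34 and 4.99 (3.26 ± 0.61), and its ratio of means went from 9.93 to 15.6 without endoderm repeat 2. GRHL2 is given by its fitted value, but both its endoderm levels lie below that of 3 reads (7.01 and 7.49), so its fold rests on few reads. The simple keratins KRT8, KRT18 and KRT19 and the factor GATA3 were lower, KRT8 at 160.5 and 110.4 against 4947 and 5769.9 (-5.30 ± 0.45, adjusted p = 3.32e-07). TP63, the master factor of epidermis, had 0 reads in all 4 libraries.

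Most endoderm and mesendoderm factors were lower in ectoderm. Of 13 tested definitive endoderm transcription factors (24 listed, 21 in the assembly), 0 were higher and 12 lower in ectoderm, with a median log2 fold change of -7.84, or -4.39 with the 7 members at 0 in ectoderm set at their bound. OTX2, among the 12, also stands in the neuroectoderm list. Summed over the 21 genes in the assembly the level was 215 and 184 in ectoderm, with OTX2 the most of it, and 1893 and 1593 in endoderm. GATA4, a zinc finger factor of endoderm and heart, had 0 reads in both ectoderm libraries and 72 and 64 in endoderm (at least 69.1-fold lower in ectoderm, adjusted p = 2.72e-07). EOMES, the T-box factor that opens the endoderm programme, had 0 in ectoderm and 70 and 56 in endoderm (at least 63.9-fold, adjusted p = 3.17e-07). GSC, the homeobox factor of the organiser, had 0 and 1 reads in ectoderm and 42 and 35 in endoderm (237-fold lower in ectoderm, pooled, 95% interval 41.3 to 9489). Both ectoderm libraries were thus at 0 or 1 read for these genes. PRDM1 stood at 3.57 and 3.48 in ectoderm and 131 and 125 in endoderm (-5.11 ± 0.41, adjusted p = 2.19e-07). ARID3A did not pass, with 38.5 and 37.4 against 65.4 and 47.4 (adjusted p = 0.171). SOX17 was at least 82.2-fold lower in ectoderm (adjusted p = 3.57e-05, but 0.0598 by DESeq2). With endoderm repeat 1 left out the bound fell to 16.8-fold, and that repeat held 150 of its reads and repeat 2 only 16. With endoderm repeat 2 left out it was 148-fold.

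**Figure D2:**
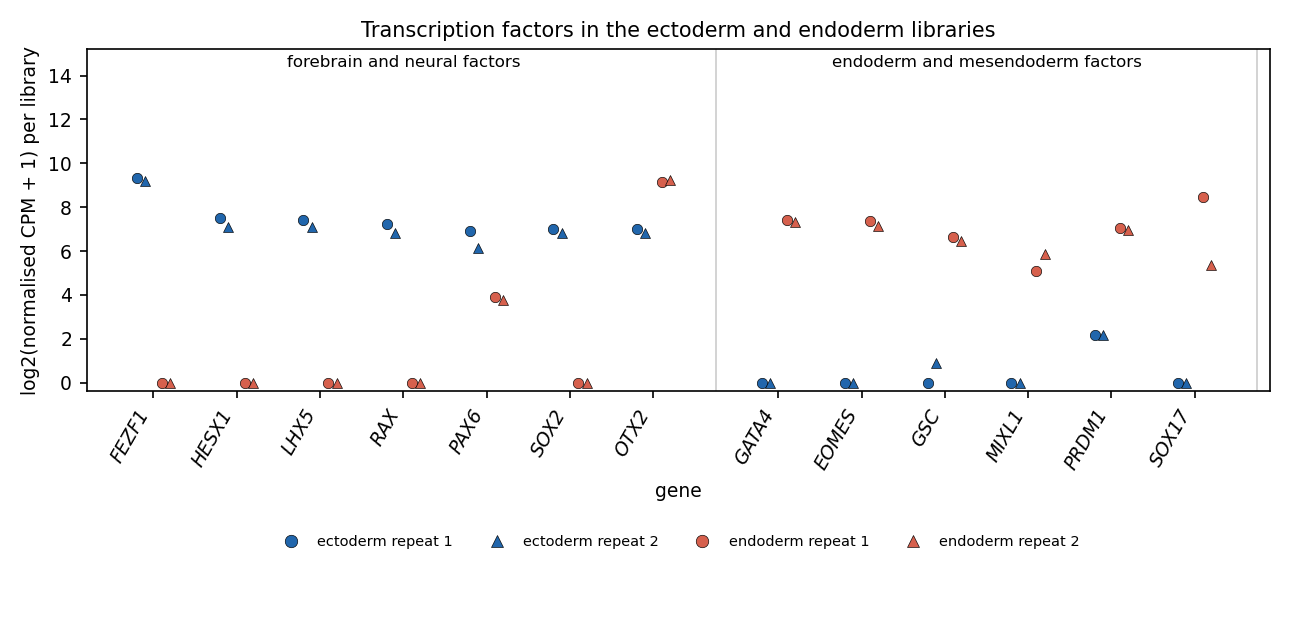
Each point is 1 library, with log2(normalised CPM + 1) on the y axis and genes on the x axis. Ectoderm libraries are blue, endoderm libraries red, repeat 1 a circle and repeat 2 a triangle. FEZF1, HESX1, LHX5, RAX and SOX2 lie at 0 in both endoderm libraries, GATA4, EOMES, MIXL1 and SOX17 lie at 0 in both ectoderm libraries, and OTX2 is higher in endoderm.

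Every call among genes of later gut and of mesoderm was lower in ectoderm. Of 5 tested foregut and hepatic genes 0 were higher and 3 lower in ectoderm. APOA1, an apolipoprotein of liver and gut, had 0 and 1 reads in ectoderm and 107 and 107 in endoderm (659-fold lower in ectoderm, pooled, 95% interval 117 to 26159), and APOA2 had 0 and 0 reads in ectoderm and 17 and 33 in endoderm (at least 25.7-fold lower, or at least 16.7-fold without endoderm repeat 2). APOE did not pass and was uneven, at 183 and 203 in ectoderm and 173 and 25.0 in endoderm. All 5 tested genes of the mesoderm list were lower in ectoderm. NKX2-5, a heart factor, had 0 and 0 reads in ectoderm and 34 and 25 in endoderm (at least 29.9-fold lower), MIXL1 had 0 and 0 reads in ectoderm and 14 and 23 in endoderm (at least 18.98-fold), and KDR, the VEGF receptor of blood and vessel precursors, stood at 1.43 and 2.61 against 60.8 and 54.9 (-4.76 ± 0.48). Summed over the 15 listed mesoderm genes in the assembly the level was 14.98 and 9.56 in ectoderm and 262 and 235 in endoderm, and 2 of them were at 0 in all 4 libraries. The part of mesoderm genes in the other differences was not tested.

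Pluripotency genes divided. Of 16 tested members 3 were higher and 9 lower in ectoderm (median log2 fold change -1.26, with 5 higher and 7 lower by library totals). NANOG, a core pluripotency homeobox gene, had 3 and 0 reads in ectoderm and 92 and 65 in endoderm (161-fold lower in ectoderm, pooled, 95% interval 54.2 to 790.2), and GDF3 had 0 and 0 reads in ectoderm and 25 and 20 in endoderm (at least 22.8-fold lower). VRTN stood at 61.3 and 66.9 against 1456 and 1860.1 (-4.69 ± 0.34, adjusted p = 1.05e-07). On the other side USP44, a deubiquitinase of stem cells, had 189 and 171 reads in ectoderm and 2 and 1 in endoderm (39.0-fold higher, pooled, 95% interval 13.2 to 189.8). LIN28A did not pass, at 740.4 and 1076 against 1143 and 1114. Among 15 tested genes of amnion and trophoblast, cell types that human stem cell cultures can also form, 2 were higher and 6 lower. The median log2 fold change of this list was 0, the value of a gene without a read in these 4 libraries. Such a gene passed the filter through the other groups and could not be called. GATA3 had 1 and 1 reads in ectoderm and 34 and 18 in endoderm, ISL1 had 0 and 0 reads in ectoderm and 8 and 13 in endoderm and HAND1 had 0 and 0 reads in ectoderm and 20 and 6 in endoderm. The bound for HAND1 went from 12.998-fold to 6.31-fold without endoderm repeat 1 and to 19.7-fold without repeat 2. The summed level of the amnion and trophoblast list was 248 and 257 in ectoderm and 846 and 709 in endoderm, and 4 of the 22 listed genes had 0 reads in all 4 libraries.

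NODAL, its coreceptor and its inhibitors were read almost only in the endoderm libraries. The ligand NODAL had 0 reads in both ectoderm libraries and 130 and 194 in endoderm, at least 166-fold lower in ectoderm (adjusted p = 2.72e-07). Its coreceptor TDGF1 (CRIPTO) had 2 and 1 reads in ectoderm and 452 and 351 in endoderm (825-fold lower, pooled, 95% interval 281 to 4007). Its secreted inhibitors were lower with it. CER1, which binds NODAL, BMP and WNT ligands, had 0 and 0 reads in ectoderm and 974 and 1181 in endoderm, at least 1100.4-fold lower in ectoderm (adjusted p = 3.44e-08). LEFTY2 had 0 and 0 reads in ectoderm and 383 and 470 in endoderm (at least 436-fold lower) and LEFTY1 2 and 0 reads in ectoderm and 1198 and 1034 in endoderm (3438-fold lower, pooled, 95% interval 951 to 28406). LEFTY1 and LEFTY2 are neighbouring, near-identical copies, so how reads were divided between them is uncertain. The groups did not overlap in any of these genes, but neither did they in 84.6% of all genes tested.

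Receptors and SMAD genes did not all follow the ligand. Of 25 tested NODAL and Activin pathway genes 7 were higher and 13 lower in ectoderm (11 and 11 by library totals, and 3 and 13 with the length trend removed). TGFBR1, a type I receptor that A83-01 inhibits, stood at 189 and 239 in ectoderm and 7.01 and 12.5 in endoderm (4.44 ± 0.47, adjusted p = 2.44e-06), and the common partner SMAD4 at 42.8 and 47.8 against 7.01 and 4.99 (2.87 ± 0.53). The secreted follistatin-like FSTL1 was higher, at 1282 and 1439.6 against 512 and 317 (1.71 ± 0.33). SMAD2 gave no call, with 129.8 and 129 against 124 and 125 and a log2 fold change of 0.06 ± 0.29, but it was lower in ectoderm with the length trend removed (-1.56, adjusted p = 0.000311). The transcripts of TGFBR1 and SMAD4 average 6477 and 7470 nt, in the length range where most calls were higher in ectoderm.

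The promoters of CER1 and NODAL are shown because both genes were read in endoderm libraries only. In the deposited assembly CER1 ends its minus-strand interval on chromosome 9 at 14722733 and NODAL on chromosome 10 at 70441681, each the base after the RefSeq window printed here. The windows are the 250 bases before the RefSeq start (GRCh38.p14), on the minus strand: chr9:14722734-14722983 for CER1 and chr10:70441682-70441931 for NODAL. Capitals mark matches on either strand to AATNNACA, the motif of FOXH1, and to CAGAC, the short motif of SMAD proteins. The motifs did not overlap here.

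CER1: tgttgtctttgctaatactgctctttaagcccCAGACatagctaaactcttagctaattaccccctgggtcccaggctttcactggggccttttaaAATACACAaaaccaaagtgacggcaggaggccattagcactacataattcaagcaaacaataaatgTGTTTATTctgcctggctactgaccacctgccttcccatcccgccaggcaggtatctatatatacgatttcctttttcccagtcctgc
NODAL: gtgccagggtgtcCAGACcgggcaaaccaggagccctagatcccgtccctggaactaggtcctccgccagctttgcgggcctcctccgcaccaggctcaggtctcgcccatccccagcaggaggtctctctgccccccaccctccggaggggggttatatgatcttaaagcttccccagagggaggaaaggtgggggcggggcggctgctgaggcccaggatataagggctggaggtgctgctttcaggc

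AATNNACA matched 2 times in the CER1 window, its first base 154 and 88 bases before the start, and 0 times in the NODAL window. CAGAC matched 1 time in each, 218 bases before the start in CER1 and 237 in NODAL. Of 35116 promoter windows of this length, 9.88% held AATNNACA at least once and 1.01% at least 2 times, and 38.0% held CAGAC. A match describes the letters only, and no binding was measured here.

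BMP pathway genes took both directions. Of 21 tested members 5 were higher and 9 lower in ectoderm (median -0.29, but 0.51 by library totals, where 6 were higher and 5 lower). The ligand BMP2 stood at 8.56 and 12.2 in ectoderm and 129 and 82.4 in endoderm (-3.35 ± 0.40, adjusted p = 6.04e-06). Genes that BMP signals switch on were lower with it: ID1, an inhibitor of helix-loop-helix factors, at 12.8 and 18.3 against 65.4 and 64.9 (-2.07 ± 0.38), and the inhibitory SMAD6 at 4.99 and 8.69 against 46.7 and 44.9 (-2.74 ± 0.49). With the length trend removed ID1 missed the threshold (-0.88, adjusted p = 0.066). ID4 stood the other way, with 184 and 127 reads in ectoderm and 0 in endoderm (at least 16.7-fold higher, adjusted p = 4.13e-06), while ID2 did not pass, at 17.8 and 21.7 against 30.4 and 17.5.

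WNT pathway genes took both directions. Of 26 tested members 10 were higher and 8 lower in ectoderm (16 and 7 by library totals). These shares were near those over all genes tested, 33.0% higher and 29.9% lower. The ligand gene WNT3 had 3 and 0 reads in ectoderm and 129 and 97 in endoderm (232-fold lower in ectoderm, pooled, 95% interval 78.4 to 1134). The secreted inhibitors DKK1 and DKK4, which WNT signals switch on, had 0 reads in ectoderm. In endoderm DKK1 had 22 and 25 (at least 24.0-fold lower in ectoderm) and DKK4 21 and 25 (at least 23.5-fold), and the receptor kinase gene ROR2 stood at 59.2 and 67.8 against 409 and 427 (-2.72 ± 0.35, but -0.69 and an adjusted p of 0.163 over transcripts that match the reference). Other receptor genes stood the other way. The receptor FZD3 stood at 277 and 239 against 11.7 and 4.99 (4.91 ± 0.42) and the coreceptor LRP6 at 118 and 149.5 against 9.35 and 7.49 (3.95 ± 0.44). LGR4, a receptor of R-spondins, had 368 and 228 reads in ectoderm and 1 and 2 in endoderm (64.5-fold higher, pooled, 95% interval 21.96 to 314). The corepressor TLE4 was higher as well (4.38 ± 0.42). The ratio of means of FZD3 went from 31.0 to 51.7 without endoderm repeat 1, and that of LGR4 from 62.9 to 98.6 without endoderm repeat 2. CTNNB1, the gene of beta-catenin, did not pass, at 263 and 249 against 241 and 175 (adjusted p = 0.385). FRZB, a secreted WNT inhibitor, did not either, at 447 and 275 against 297 and 259.7.

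FGF17, a ligand of the mesendoderm, had 1 and 0 reads in ectoderm and 792 and 776 in endoderm (4830.4-fold lower in ectoderm, pooled, 95% interval 866 to 190910.0). Of 19 tested members 5 were higher and 8 lower (median -0.43, but 0.37 by library totals, where 7 were higher and 7 lower). Target and feedback genes of FGF signals took both directions, with SPRY4, ETV4 and DUSP4 lower and ETV1 and SPRED1 higher in ectoderm. SPRY4 stood at 19.3 and 22.6 against 215 and 235 (-3.42 ± 0.37), ETV4 at 27.8 and 27.8 against 138 and 215 (-2.65 ± 0.34) and DUSP4 at 36.4 and 35.6 against 159 and 137 (-2.04 ± 0.29). ETV1, an ETS factor, stood at 34.2 and 34.8 against 2.34 and 7.49 (2.79 ± 0.59), and its ratio of means went from 7.02 to 4.61 without endoderm repeat 1 and to 14.8 without repeat 2. SPRED1, a relative of the Sprouty inhibitors, stood at 47.8 and 63.5 against 14.02 and 7.49 (2.33 ± 0.47). Both calls were lost with the trend on GC content removed (0.99, adjusted p = 0.240, and 0.73, adjusted p = 0.238). The receptors FGFR1 and FGFR2 were higher too, FGFR1 at 599 and 1026 against 217 and 175 (2.05 ± 0.33) and FGFR2 at 79.9 and 91.3 against 28.0 and 14.98 (1.97 ± 0.41).

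Of 14 tested NOTCH pathway genes 7 were higher and 1 lower in ectoderm (6 and 3 with the length trend removed). The ligand DLL1 stood at 49.9 and 45.2 against 4.67 and 7.49 (2.94 ± 0.54) and the receptor NOTCH2 at 131 and 172 against 30.4 and 29.96 (2.32 ± 0.41), which missed the threshold with the length trend removed (0.94, adjusted p = 0.0584). The sugar-adding enzyme gene RFNG was the lower member, at 9.27 and 9.56 against 32.7 and 42.4. Of 12 tested retinoic acid genes 0 were higher and 5 lower. CYP26A1, which breaks retinoic acid down, stood at 29.96 and 33.9 in ectoderm and 6573 and 5919.7 in endoderm (-7.61 ± 0.46, adjusted p = 2.57e-08). ALDH1A3, an enzyme that makes retinoic acid, was lower too (-3.63 ± 0.48). By library totals this list stood at 2 higher and 3 lower.

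**Figure D3:**
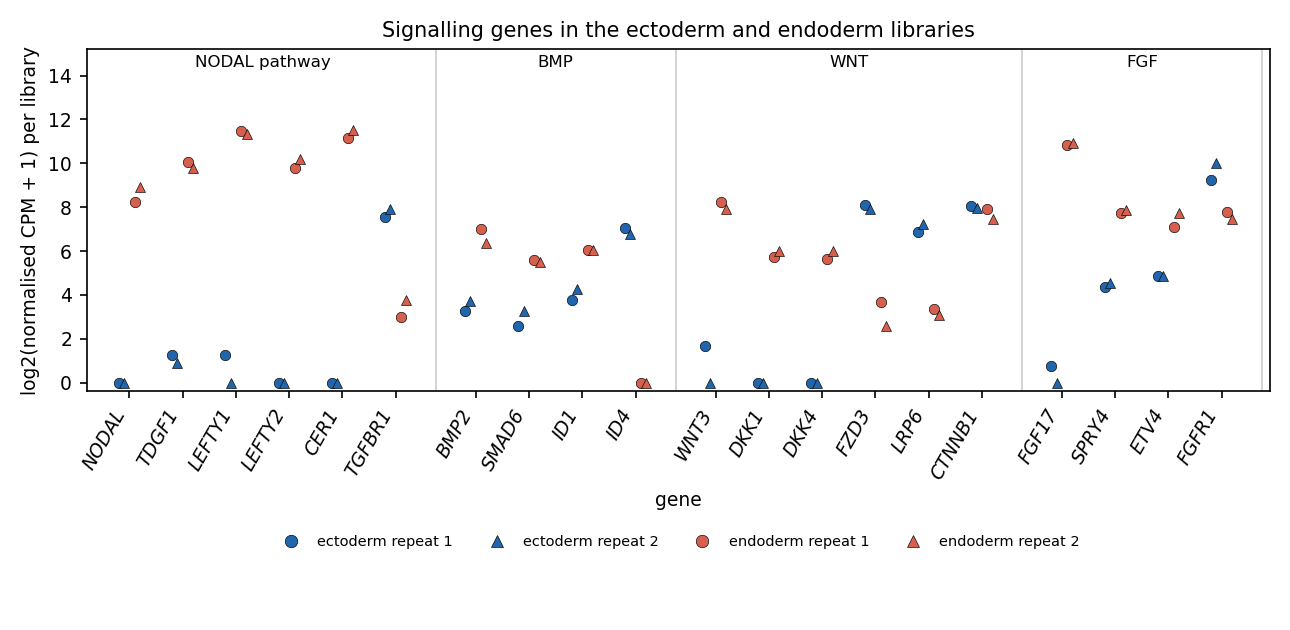
Each point is 1 library, with log2(normalised CPM + 1) on the y axis and genes of 4 pathways on the x axis, coloured and shaped as in the plot of transcription factors. NODAL, LEFTY2, CER1, DKK1 and DKK4 lie at 0 in both ectoderm libraries and ID4 at 0 in both endoderm libraries. TGFBR1, FZD3, LRP6 and FGFR1 are higher in ectoderm, and CTNNB1 gave no call.

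Cell surface and matrix genes differed gene by gene. Among 22 tested surface and secreted genes listed for definitive endoderm, 16 were lower and 3 higher in ectoderm. The exceptions were GPC3, a heparan sulphate proteoglycan, with 1634 and 1205 reads in ectoderm and 2 and 5 in endoderm (7.00 ± 0.47, adjusted p = 5.60e-08), the WNT inhibitor SFRP1 (1.79 ± 0.33) and the receptor FZD5 (2.80 ± 0.50). FZD5 had 33 and 4 reads in the endoderm repeats, and its ratio of means went from 7.07 to 30.8 without endoderm repeat 1 and to 3.99 without repeat 2. The ratio of GPC3 went from 129 to 237 without endoderm repeat 2. S1PR3 gave no call, at 108 and 116 against 124 and 102.4.

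Of 25 cadherin, junction and EMT genes 9 were higher and 11 lower in ectoderm (11 and 10 by library totals). Junction genes were among the higher ones: the tight junction scaffold TJP1 stood at 143 and 175 against 11.7 and 17.5 (3.44 ± 0.43), the tight junction protein OCLN at 153 and 196 against 30.4 and 25.0 (2.64 ± 0.40), and CDH6, a cadherin, had 67 and 51 reads against 0 (at least 6.35-fold). SNAI1, FN1, MMP14 and VIM, all used by mesenchymal cells, were lower. SNAI1, a repressor of E-cadherin, stood at 4.28 and 2.61 against 93.5 and 89.9 (-4.63 ± 0.41), FN1 (fibronectin) at 57.1 and 55.6 against 1297 and 1178 (-4.45 ± 0.39) and the matrix protease MMP14 at 7.85 and 15.6 against 402 and 419 (-5.13 ± 0.47). EPCAM and CDH3 did not pass, with EPCAM at 74.9 and 37.4 against 114 and 54.9. Of 37 collagen, laminin and proteoglycan genes 12 were higher and 12 lower (8 and 19 with the length trend removed, but 19 and 9 by library totals). Both shares were near those over all genes tested, 33.0% higher and 29.9% lower. The basement membrane linker NID1 was higher in ectoderm, at 143 and 164 against 7.01 and 14.98 (3.80 ± 0.43), and so was COL9A1 (4.14 ± 0.46). COL5A1 and COL5A2 were lower (-3.40 ± 0.33 and -4.00 ± 0.34). The ratio of means of NID1 went from 13.99 to 21.9 without endoderm repeat 2.

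Axon guidance and neural adhesion genes were split as well, with 15 of 33 tested members higher and 8 lower in ectoderm (10 and 11 with the length trend removed). PCDH18, a protocadherin, had 742 and 775 reads in ectoderm and 2 and 1 in endoderm (164-fold higher, pooled, 95% interval 56.1 to 797), and PCDH10 was its opposite, with 0 and 0 reads in ectoderm and 46 and 52 in endoderm (at least 49.98-fold lower). The receptor ROBO1 stood at 209.7 and 263 against 18.7 and 25.0 (3.43 ± 0.40) and SEMA6A at 668 and 755 against 93.5 and 62.4 (3.18 ± 0.36). L1CAM, an adhesion molecule best known from axons, stood at 2.14 and 2.61 in ectoderm and 472 and 355 in endoderm (-7.35 ± 0.56, adjusted p = 1.35e-07), and the semaphorin receptor PLXNA2 at 10.7 and 6.09 against 444 and 482 (-5.73 ± 0.40).

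**Figure D4:**
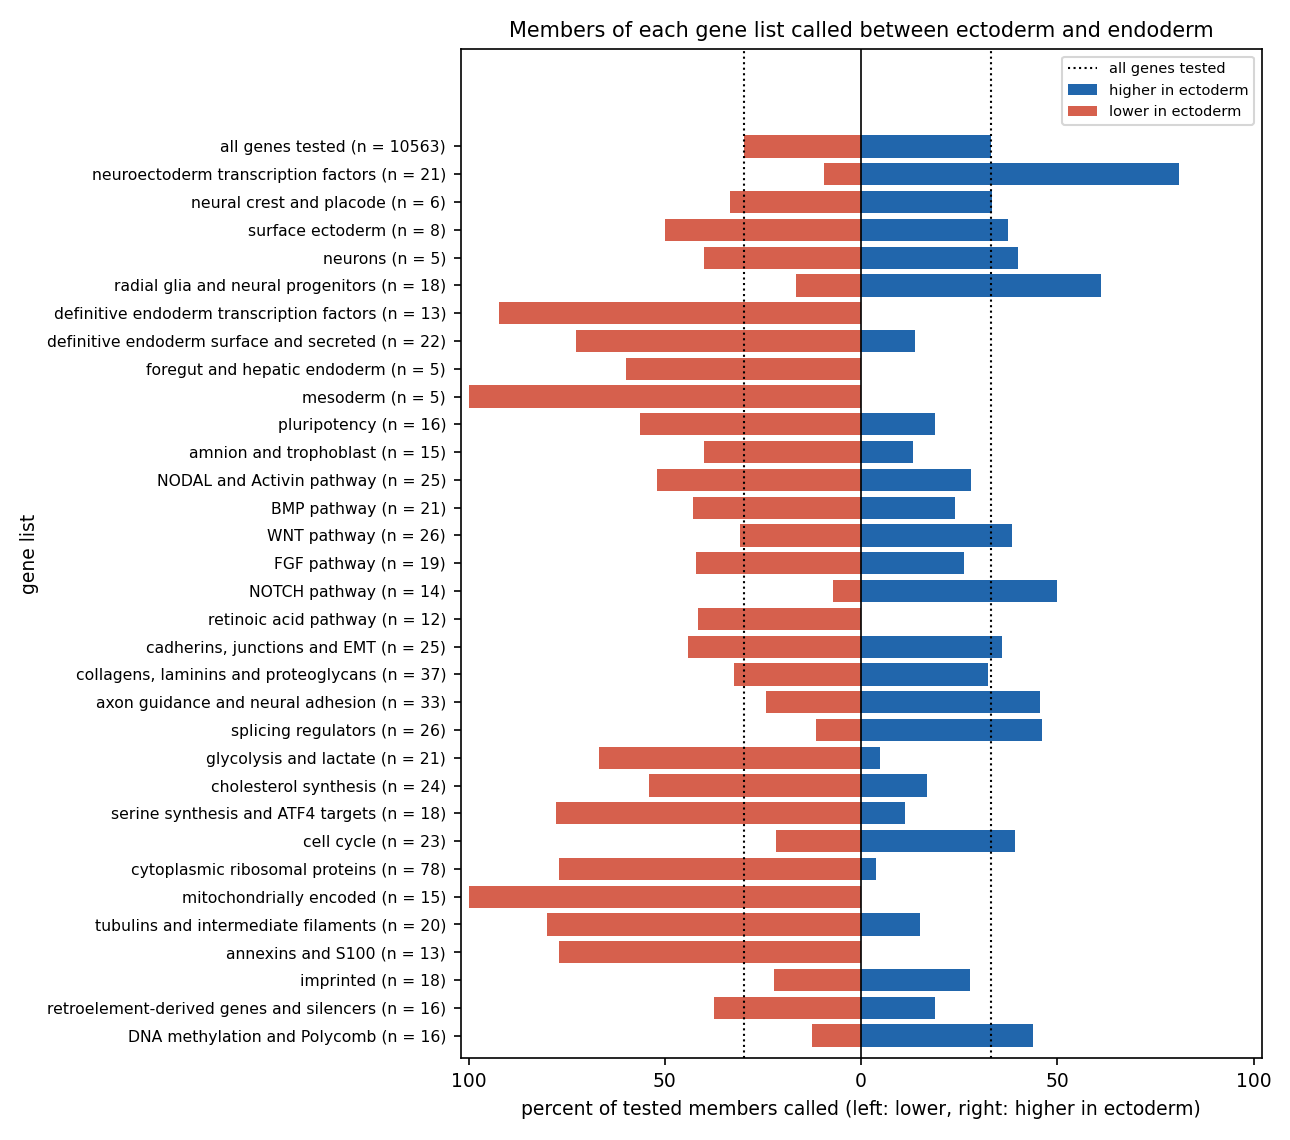
For each gene list, on the y axis with its number of tested members, bars give the percent of tested members called lower (red, left) or higher (blue, right) in ectoderm, on the x axis. Dotted lines mark the percent over all genes tested, 29.9% lower and 33.0% higher. Neuroectoderm factors reach furthest to the right, with 17 of 21 higher. Of definitive endoderm factors 12 of 13 were lower. In the lists of mesoderm genes (5) and mitochondrially encoded genes (15), every tested member was lower.

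Cytoskeleton and membrane-binding genes were mostly lower in ectoderm. Of 20 tested tubulins and intermediate filaments 16 were lower and 3 higher, and of 13 annexins and S100 genes 10 were lower and 0 higher (16 and 3, and 9 and 1, with the length trend removed). ANXA2, a calcium-dependent membrane binder, stood at 68.5 and 57.4 in ectoderm and 1888 and 1695 in endoderm (-4.83 ± 0.36), its partner S100A10 had 2 and 0 reads in ectoderm and 202 and 220 in endoderm (650.0-fold lower, pooled, 95% interval 179 to 5385), and ANXA6 stood at 22.1 and 24.3 against 1589 and 1715 (-6.14 ± 0.41).

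Metabolic genes were mostly lower in ectoderm. The pyruvate kinase gene PKM, summed over its transcripts, stood at 1912 and 1596 in ectoderm and 25002 and 26360.0 in endoderm (-3.87 ± 0.45, adjusted p = 4.64e-06). Of 21 glycolysis and lactate genes 14 were lower and 1 higher (13 lower and 1 higher with the length trend removed, but 11 lower and 7 higher by library totals). ALDOA (-3.45 ± 0.41), TPI1 (-2.75 ± 0.36) and GAPDH (-2.78 ± 0.37) were lower too. The glucose transporter SLC2A1 gave no call, at 517 and 427 against 339 and 474. Of 24 cholesterol synthesis genes 13 were lower and 4 higher (11 and 8 by library totals). FDPS, an enzyme of the pathway, stood at 57.8 and 50.4 against 951 and 1286 (-4.36 ± 0.38). The pathway's factor gene SREBF2 did not pass, at 271 and 353 against 285 and 325.

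Of 18 serine synthesis and ATF4 target genes 14 were lower and 2 higher. ATF4, the factor of the amino acid response, stood at 9.27 and 8.69 against 133 and 125 (-3.81 ± 0.36), and both chains of a large amino acid transporter were lower: SLC3A2 at 212 and 138 against 4229 and 4846 (-4.69 ± 0.39) and SLC7A5 at 61.3 and 109.5 against 3206 and 2257 (-5.00 ± 0.53). DDIT4 was higher in ectoderm (1.61 ± 0.39). Cytoplasmic ribosomal protein genes, whose transcripts are short, were 3 higher and 60 lower of 78. This count moved to 11 and 31 by library totals and to 15 and 25 with the length trend removed, and many of these genes have near-identical pseudogene copies, so they are uncertain. All 15 mitochondrially encoded genes were lower in ectoderm, 13 by library totals and 11 with the length trend removed. MT-ND2 stood at 99.9 and 79.1 against 577 and 764 (-2.90 ± 0.38).

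Cell cycle genes took both directions, 9 of 23 higher and 5 lower in ectoderm (12 and 3 with the length trend removed, and 14 and 2 by library totals). Over all genes tested 33.0% were higher and 29.9% lower. TOP2A, a topoisomerase of dividing cells, stood at 946 and 1115 in ectoderm and 23.4 and 27.5 in endoderm (5.33 ± 0.37, adjusted p = 6.69e-08). CCNA2, a cyclin of S phase, was at 199 and 237 against 21.03 and 19.97 (3.40 ± 0.38) and CCND2 at 934 and 989 against 103 and 82.4 (3.37 ± 0.32). The inhibitor CDKN1A was lower, at 159.8 and 124 against 764 and 784 (-2.44 ± 0.31). The mitotic cyclin CCNB1 gave no call, at 370.2 and 243 against 341 and 337. Of 16 DNA methylation and Polycomb genes 7 were higher and 2 lower (5 and 4 with the length trend removed, but 12 and 1 by library totals). The Polycomb cofactor MTF2 stood at 134 and 114 against 7.01 and 9.99 (3.85 ± 0.45) and the H3K27 methyltransferase EZH2 at 73.5 and 74.8 against 21.03 and 14.98 (2.02 ± 0.40), while their partner JARID2 was lower, at 48.5 and 73.9 against 182 and 215 (-1.70 ± 0.32).

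Imprinted genes, expressed from 1 parental copy, gave 5 higher and 4 lower of 18 tested (9 and 2 by library totals). Over all genes tested 33.0% were higher and 29.9% lower. MEST stood at 1394 and 1354 in ectoderm and 49.1 and 47.4 in endoderm (4.83 ± 0.36, adjusted p = 1.14e-07), and ZDBF2 had 41 and 27 reads against 0 (at least 3.64-fold higher). SNRPN was lower, at 471 and 329 against 1633 and 2105 (-2.22 ± 0.38), and so was PEG10, a retroelement-derived gene, at 134 and 169.5 against 591 and 569 (-1.93 ± 0.33). Of 16 retroelement-derived genes and silencers 3 were higher and 6 lower (7 and 3 by library totals, but 2 and 7 with the length trend removed). RTL8C, a domesticated gag gene with near-identical neighbours, stood at 32.8 and 28.7 against 262 and 357 (-3.32 ± 0.32), and TASOR, a subunit of the HUSH silencing complex, had 62 and 65 reads in ectoderm and 3 and 0 in endoderm.

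Outside the lists, the genes of largest fitted fold lower in ectoderm included RAB17, a small GTPase of epithelial membrane traffic, with 2 and 1 reads in ectoderm and 646 and 654 in endoderm (1335-fold pooled, 95% interval 456 to 6482), and SERPINB9, an inhibitor of granzyme B, at 2.14 and 1.74 against 2201 and 2225 (-10.01 ± 0.46, adjusted p = 2.95e-09). Both ectoderm levels of SERPINB9 lie at or below that of 3 reads (2.14 and 2.61), so the size of its fold rests on few reads. Those of largest fold higher included GREB1L, with 371 and 320 reads in ectoderm and 0 in endoderm (at least 37.4-fold), FJX1, with 341 and 185 and none (at least 27.9-fold), and SESN3, a sestrin, with 152 and 118 and none (at least 14.6-fold). Among non-coding genes, FEZF1-AS1 had 210 and 172 reads in ectoderm and 0 in endoderm (at least 20.6-fold higher), LHX5-AS1 143 and 129 and none (at least 14.8-fold) and LINC01833 238 and 139 and none (at least 20.04-fold). FEZF1-AS1 and LHX5-AS1 lie antisense to FEZF1 and LHX5, and whether counting used strand is not given in the sources used here, so reads of such pairs cannot be told apart. LINC01356 had 1 and 0 reads in ectoderm and 161 and 151 in endoderm (961-fold lower in ectoderm, pooled, 95% interval 171 to 38084), and LINC00458 3 and 1 reads in ectoderm and 33 and 29 in endoderm, a ratio of means that went from 49.7 to 86.0 without ectoderm repeat 1.

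Beyond levels, some genes used other transcripts in the 2 cultures. Of 2638 genes with at least 2 tested transcripts, 198 (7.51%) had shares that differed at a Simes adjusted p under 0.05 (edgeR diffSpliceDGE), and without any 1 of the 4 libraries the count fell to between 41 and 60. For each called gene the transcript whose share gained most in ectoderm was set against the one that gained most in endoderm. They had another first exon, by the splice site that ends it, in 89 genes. This was 44.9%, against 36.3% of the same pairs in 2548 genes with reads in every library. They had another last exon, by the splice site that begins it, in 54 genes, and differed by a retained intron in 68. By this definition a kept first or last intron can also count as another first or last exon. The first exon alone differed in 62 genes and the last exon alone in 13. The intron was kept by the ectoderm transcript in 60 genes and by the endoderm transcript in 14, and a gene can count more than 1 time. The last exon and retained intron counts were not set against all pairs. Transcripts inside a reference intron held 2.77% and 3.10% of all reads in ectoderm, against 1.06% and 1.06% in endoderm. Transcripts that match no reference transcript held 23.6% and 25.2%, against 14.2% and 14.1%. The part of these library traits in the counts was not tested. The ectoderm transcript was the longer one in 147 genes (74.2%, against 56.8% of all pairs), which goes with the longer transcripts behind reads in those libraries. The part of read length in it was not tested. The most abundant transcript was another one in ectoderm than in endoderm, in both repeats, in 63 genes, 48 of them with at least 30 reads in every library. Another first exon was used in 27 of those 48 genes. The 8 genes described next are those with the largest share gain of the transcript most abundant in ectoderm, and all 8 used another first exon. Ranked by the transcript most abundant in endoderm, other genes would enter, such as POLR3C, MAT2A and WSB1 (chosen after their values were seen), whose endoderm transcripts differed by 59.2, 57.8 and 51.3 percentage points in share against 46.5 in UNG. Of these POLR3C used another first exon and WSB1 a shifted internal splice site. The MAT2A transcripts shared both ends and differed by a retained intron.

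UNG and HDGF are shown in sequence because their exchanged first exons hold the start of the protein. UNG encodes uracil-DNA glycosylase, which removes uracil from DNA, and has a nuclear and a mitochondrial form from separate starts. HDGF is a chromatin-binding growth factor with a PWWP domain. Each line is the coding part of a first exon that the other transcript lacks, read 5′ to 3′ from the GENCODE 29 transcript on GRCh38, with the start codon in capitals. UNG lies on the plus strand of chromosome 12, with these parts at chr12:109097680-109097811 (132 bases, ectoderm) and chr12:109098327-109098431 (105 bases, endoderm). HDGF lies on the minus strand of chromosome 1, at chr1:156751343-156751429 (87 bases, ectoderm) and chr1:156752229-156752363 (135 bases, endoderm).

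UNG, most abundant in ectoderm: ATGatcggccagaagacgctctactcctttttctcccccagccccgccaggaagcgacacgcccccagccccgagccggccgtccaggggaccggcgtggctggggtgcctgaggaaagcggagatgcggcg
UNG, most abundant in endoderm: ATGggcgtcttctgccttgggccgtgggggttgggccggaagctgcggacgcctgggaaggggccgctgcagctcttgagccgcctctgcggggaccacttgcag
HDGF, most abundant in ectoderm: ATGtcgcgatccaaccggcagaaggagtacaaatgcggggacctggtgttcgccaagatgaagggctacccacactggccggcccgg
HDGF, most abundant in endoderm: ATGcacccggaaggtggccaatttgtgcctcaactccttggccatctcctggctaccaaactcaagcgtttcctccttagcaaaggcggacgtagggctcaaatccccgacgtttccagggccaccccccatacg

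The UNG transcript most abundant in ectoderm has an annotated coding sequence of 939 bases, that of the nuclear form, and the one most abundant in endoderm 912 bases, that of the mitochondrial form. The share of the nuclear transcript among UNG reads, with 95% Wilson intervals that cover counting error only, was 71.2% (94 of 132 reads, 63.0 to 78.2) and 79.7% (94 of 118 reads, 71.5 to 85.9) in ectoderm, and 34.3% (12 of 35 reads, 20.8 to 50.8) and 23.7% (9 of 38 reads, 12.99 to 39.2) in endoderm. The 2 transcripts took all UNG reads. The Simes adjusted p was 0.0289, but the call was lost without any 1 library (0.215 to 0.385) and over transcripts of at least 5 reads (0.0704). The level of UNG itself did not pass the gene test (0.16 ± 0.32, adjusted p = 0.691). The HDGF transcript with the first exon nearer the gene's end, which starts 773 bases downstream of the other, had a share of 82.2% (106 of 129 reads, 74.7 to 87.8) and 78.4% (58 of 74 reads, 67.7 to 86.2) in ectoderm, and 17.5% (21 of 120 reads, 11.7 to 25.3) and 25.0% (35 of 140 reads, 18.6 to 32.8) in endoderm. Its Simes adjusted p was 0.00329, and it passed without endoderm repeat 2 (0.0362) but not without another of the 4 libraries (0.067 to 0.118). HDGF as a gene was lower in ectoderm (-2.003 ± 0.31, adjusted p = 6.39e-05).

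CDIP1, a regulator of cell death, had the largest share difference of the 48 genes. The transcript most abundant in ectoderm, on the minus strand of chromosome 16, had a share of 91.9% (158 of 172 reads, 86.8 to 95.1) and 86.9% (73 of 84 reads, 78.1 to 92.5) in ectoderm, and 19.5% (32 of 164 reads, 14.2 to 26.2) and 20.2% (33 of 163 reads, 14.8 to 27.1) in endoderm, and the other, which starts 303 bases upstream, took the rest. Both have the same annotated coding sequence of 624 bases. The Simes adjusted p was 6.73e-05 (0.00753 to 0.0217 without 1 library). For COL1A1, the main chain of type I collagen, the full-length reference transcript had a share of 88.6% (163 of 184 reads, 83.2 to 92.4) and 88.3% (181 of 205 reads, 83.2 to 92.0) in ectoderm, and 25.0% (8 of 32 reads, 13.3 to 42.1) and 17.5% (7 of 40 reads, 8.75 to 31.9) in endoderm. The rest came from a shorter transcript that starts 1440 bases downstream and matches no reference transcript. It also ends 1132 bases earlier, with a length of 4810 nt against 5919 nt. Whether it has a start site of its own was not tested. The adjusted p was 0.000197 (0.011 to 0.0237 without 1 library). In ROR2, a receptor of WNT5A, the reference transcript had a share of 56.6% (47 of 83 reads, 45.9 to 66.8) and 59.0% (46 of 78 reads, 47.9 to 69.2) in ectoderm, and 15.4% (27 of 175 reads, 10.8 to 21.5) and 7.02% (12 of 171 reads, 4.06 to 11.9) in endoderm, and the transcript that led in endoderm, which matches no reference transcript, starts 1500 bases downstream and holds 1 more exon. The adjusted p was 0.000516 (0.0127 to 0.0328 without 1 library, but 0.162 over transcripts that match the reference). These 3 genes passed without any 1 of the libraries.

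ASH2L, a subunit of the H3K4 methyltransferase complexes, used the transcript that starts 264 bases upstream for 87.1% (101 of 116 reads, 79.8 to 92.0) and 79.6% (74 of 93 reads, 70.3 to 86.5) in ectoderm, and 18.1% (19 of 105 reads, 11.9 to 26.5) and 19.5% (15 of 77 reads, 12.2 to 29.7) in endoderm. Its annotated coding sequence has 1884 bases against 1602 in the other. The adjusted p was 0.000442, and only without ectoderm repeat 1 did it miss the threshold (0.0559). CDK16, a cyclin-dependent kinase, used the transcript that starts 447 bases downstream for 86.0% (208 of 242 reads, 81.0 to 89.8) and 89.1% (188 of 211 reads, 84.2 to 92.6) in ectoderm, and 28.6% (22 of 77 reads, 19.7 to 39.5) and 12.5% (8 of 64 reads, 6.47 to 22.8) in endoderm. The endoderm transcript adds 12 coding bases in its first exon and 6 in the next. SET, an inhibitor of histone acetylation and of phosphatase PP2A, used the transcript that starts 5801 bases downstream for 75.2% (584 of 777 reads, 72.0 to 78.1) and 67.1% (332 of 495 reads, 62.8 to 71.1) in ectoderm, and 14.5% (10 of 69 reads, 8.07 to 24.7) and 17.0% (8 of 47 reads, 8.89 to 30.1) in endoderm. Adjusted p were 0.0329 and 0.0194, and both genes failed without any 1 of the 4 libraries (0.241 to 0.522 and 0.134 to 0.373). CDK16 also failed with ectoderm thinned to the endoderm depth (0.143), over transcripts that match the reference (0.123) and over transcripts of at least 5 reads (0.0554), while SET passed in all 3 (0.01996, 0.0248 and 0.0101).

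**Figure D5:**
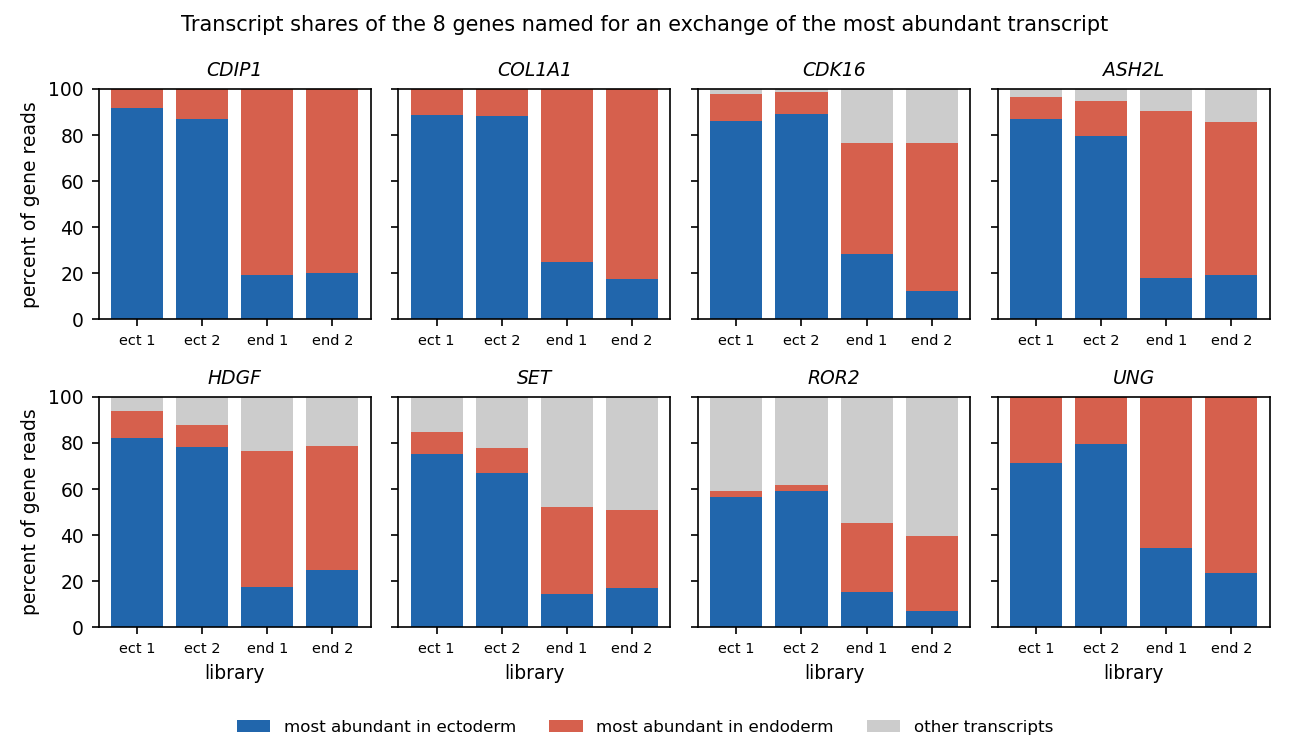
Stacked bars give the percent of a gene's reads, on the y axis, in each of 4 libraries, on the x axis (ect, ectoderm; end, endoderm), for the transcript most abundant in ectoderm (blue), the one most abundant in endoderm (red) and all others (grey). In all 8 genes the blue share is higher in both ectoderm libraries than in both endoderm libraries. For CDIP1 it is 91.9% and 86.9% against 19.5% and 20.2%.

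Splicing regulators themselves were 12 higher and 3 lower of 26 tested in ectoderm (8 and 5 with the length trend removed, and 17 and 0 by library totals). MBNL2, which acts in neural splicing, had 95 and 74 reads in ectoderm and 0 and 1 in endoderm (54.9-fold higher, pooled, 95% interval 9.71 to 2179.5), QKI stood at 73.5 and 82.6 against 14.02 and 7.49 (2.82 ± 0.44) and SRSF5 at 451 and 465 against 100.5 and 112 (2.10 ± 0.32).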

How the data were processed

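Long reads of polyadenylated RNA came from a PacBio instrument, per the labels' protocols. The submitters' processing notes name minimap2, StringTie, GRCh38 and hg38 without saying which step each served; versions, the counting tool and its use of strand are not given in the sources used here. The authors deposited whole read counts per transcript of a combined assembly, not normalized. The deposited endoderm columns are filed under estimated counts, since a unit check refused them as counts; they are whole and nothing was rounded.

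Counts were summed per gene over transcripts that carry a gene name, and tested with edgeR 4.0.16 in R 4.3.3: TMM, filterByExpr by group (minimum count 10), 1 quasi-likelihood fit over all 8 libraries, contrast ectoderm minus endoderm, two-sided, Benjamini-Hochberg at 0.05. SE is the log2 fold change divided by the square root of F. Log2 fold changes are given as value ± SE. Shares within genes were tested with diffSpliceDGE (Simes). A fold against 0 reads in both libraries is a lower bound against 3 reads per library; with 1 to 3 reads it is a pooled ratio with a 95% exact conditional binomial interval, for counting error only. Lists were described by counts and medians.

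Named genes were the 4 markers; the 10 highest and 10 lowest folds among genes at 20 or more normalised CPM in each library of the group that was higher; per list up to 4 called members per direction of smallest p and up to 2 uncalled members of highest level; 3 non-coding genes per direction; and the 8 exchanges of the most abundant transcript with the largest share gain of the ectoderm transcript. Not all of them are printed, and some are not reported here. The comparison, lists and rules were chosen with earlier results of these data known. The scripts were tested on simulated data. Alternatives were DESeq2 1.42.0, limma 3.58.1 (diffSplice) and those named in the closing section. Promoters come from RefSeq (GRCh38.p14) and coding parts from GENCODE 29.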

Additional observations from a re-analysis of the deposited data

How the results depend on the processing

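The number of genes called ranged from 5082 to 7889 over the alternatives (DESeq2, library totals, no filter on low counts, 4 libraries only, ectoderm thinned to the endoderm depth, trends on length or GC content removed, reference transcripts only, every row of a gene identifier), against 6642, and was 5145 to 5671 without 1 library. Without TMM scaling 73.0% of the calls were higher in ectoderm, against 52.5%. The number of transcripts called, 7782, became 13103 with no filter. The 198 genes called for shares became 362 with limma diffSplice, 388 with a gene-level F test, 432 in a fit of the 4 libraries alone, 113 over reference transcripts and 41 to 60 without 1 library; the cause was not tested. The mean transcript length per read was 1504 nt longer in ectoderm, 1073 nt over reference transcripts and 1082 nt over transcripts held by at least 2 group assemblies.

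Of 154 named genes, 132 kept direction and side of the threshold under every alternative run. SMAD2, not called in the report, was -1.56 with the length trend and -1.63 with the GC trend removed. TFAP2A ranged from -4.53 to 1.73 without 1 library. The cause was not tested.

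Repeat numbers did not pair the samples: deviations of same-numbered ectoderm and endoderm repeats correlated at -0.03 over 10563 genes. With the repeat number as a replicate block 6550 genes, 7547 transcripts and 151 genes for shares were called. UNG missed the threshold for shares with the block (Simes adjusted p = 0.0553).

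There are 2 repeats a group, and the shallower endoderm libraries limit what can be called in genes that are low there.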
